A study of Homo sapiens with 17 samples.

Results

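NF-kB is a family of dimeric transcription factors, and the genes described here are its subunits, its inhibitors and the genes it switches on to restrain itself. The list held 10 genes, set by gene name with earlier results of these data known. They were the subunits NFKB1, NFKB2, RELA and RELB, the inhibitor genes NFKBIA, NFKBIE and NFKBIZ, and the feedback or response genes TNFAIP3, BIRC3 and SOD2. Of these, 8 had a row among the 9699 transcripts of the deposited table, 1 transcript per gene, and NFKBIE and BIRC3 had none and are not analysed here.

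The values came from RNA-Seq, which gives the RNA level, and Ribo-Seq, which sequences the RNA stretches covered by ribosomes, in BJ fibroblasts, human skin fibroblasts immortalized with hTERT, the catalytic subunit of telomerase. Cells were kept in DMEM with 10% FCS (proliferation), deprived of serum (quiescence), given 4-OHT-Tamoxifen for 5 days (pre-senescence) or 14 days (senescence) to activate an inducible RASG12V oncogene, or transformed. By the paper, the transformed cells carried hTERT, knockdowns of p16INK4A and p53, SV40 small T and RASG12V expressed from the vector pBabe-puro. Each of the 12 columns of the table holds FPKM (a read level scaled by transcript length and library size), with values under 1 set to 1 by the authors, and no member was at this floor in any column. The 17 samples were sequenced in 2 runs: run 1 held proliferating, quiescent and pre-senescent cells, and run 2 held proliferating, senescent and transformed cells. Of the columns, 5 are the authors' combined value of 2 samples (both assays of run 1 proliferation and of quiescence, and the RNA of pre-senescence), and the other 7 are 1 sample each. There was thus 1 value per gene, assay and condition within a run, so no test, standard deviation or p-value could be given for any comparison. A gene is called higher or lower here when it was at least 2-fold (1 on the log2 scale) from its reference, and each count is set beside the share of all transcripts past the same limit. The 2 proliferating columns, from different runs, are the only repeat of a condition and serve as a yardstick. This yardstick sets a combined value of 2 samples (run 1) beside 1 sample (run 2). By the paper, RNA of run 1 was sequenced paired-end and that of run 2 was not. The authors compared conditions only within a run because they saw a batch effect, so references from the other run include that effect.

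Several checks touch all results. The Ribo-Seq libraries titled as senescent and as run 2 proliferating carry each other's condition in a further label, and the titles were followed here. The proliferation marker MKI67 was at 43.02 FPKM in the Ribo-Seq of the library titled as proliferating and at the floor in the one titled as senescent, as in the RNA of the same conditions (43.97 FPKM and the floor). Over the 4 cycling markers with a row, these Ribo-Seq libraries summed to 327.3 and 19.41 FPKM, the same direction as MKI67. The RNA of the same conditions summed to 192.7 and 8.67 FPKM. The cycling markers thus followed the titles and not the further label. The 7 fibroblast markers were all in the table, summing to 4972 to 7154 FPKM in RNA, of which VIM made up 2956 to 4881. Others of them were lower in senescence than in run 2 proliferation, COL1A1 at 51.57 against 1328 FPKM and PDGFRB at 4.49 against 48.45. No epithelial (0 of 4) or endothelial (0 of 3) marker had a row, and the 1 leukocyte marker of 4 with a row was at 1 to 1.67 FPKM. In the library labelled transformed, CDKN2A, the gene of p16INK4A, was at 12.64 FPKM against 6.75 in run 2 proliferation in RNA and at 5.51 against 8.92 FPKM in Ribo-Seq. CDKN2A RNA was thus higher than in proliferation of its own run in a library labelled with a p16INK4A knockdown, although run 1 proliferation was at 17.19 FPKM. The table holds 1 transcript for CDKN2A, and whether its level is that of the p16INK4A RNA was not tested. Wherever transformed cells are named, the library so labelled is meant, and each direction drawn from it rests on that label. HRAS RNA was at 1284 to 2415 FPKM in the proliferating columns, 1254 in quiescence, 2102 and 2087 after 5 and 14 days of induction and 312 in the library labelled transformed. Whether the proliferating and quiescent cells also carried the inducible RAS construct is not given in the sources used here.

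In resting cells NF-kB dimers are held in the cytoplasm by the I kappa B proteins. Cytokines such as interleukin 1 or TNF activate I kappa B kinase, the inhibitor is degraded, and the freed dimers enter the nucleus and bind kappa B sites in promoters and enhancers. Several of the first genes to respond encode the inhibitors themselves, which closes a negative feedback loop. In fibroblasts the pathway drives inflammatory cytokines, including many of the factors secreted by senescent cells.

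The promoters of this family are themselves well known carriers of kappa B sites, so the sequence just upstream of each start was searched for the 10-base kappa B consensus on both strands, overlapping matches included, in the 250 bases before each RefSeq start site (GRCh38.p14). Windows were at hand for 8 of the 10 genes (16 windows, 8 genes including BIRC3), and not for RELB or NFKBIE. A match was found for 6 of the 8 genes and in 8 of the 16 windows, and in 9.96% of all 35116 promoters of the same length. RELA and SOD2 had none in their windows. The stretches below are shown because they place the matches in the inhibitors and subunits whose levels are described next, capitals mark the matches and each stretch is read 5′ to 3′ on the strand of the gene.
NFKB1, chr4:102501290-102501339, plus strand, 1 match starting 49 bases before the start: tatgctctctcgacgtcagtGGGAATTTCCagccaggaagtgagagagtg
NFKB2, chr10:102394451-102394529, plus strand, 3 matches starting between 107 and 78 bases before the start, the first 2 of which overlap: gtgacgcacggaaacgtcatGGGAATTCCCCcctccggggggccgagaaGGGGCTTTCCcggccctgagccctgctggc
NFKBIA, chr14:35404801-35404850, minus strand, 1 match starting 81 bases before the start: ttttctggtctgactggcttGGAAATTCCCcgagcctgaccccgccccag
NFKBIZ, chr3:101827747-101827796, plus strand, 1 match starting 223 bases before the start: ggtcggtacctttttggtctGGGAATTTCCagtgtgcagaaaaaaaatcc
TNFAIP3, chr6:137867172-137867233, plus strand, 2 matches starting 67 and 55 bases before the start: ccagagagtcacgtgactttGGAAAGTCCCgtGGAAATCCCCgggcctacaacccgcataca
The matched 10 bases of NFKB1 and NFKBIZ were the same. Another window of NFKB2 held 2 matches, another of NFKBIZ held 1 and that of BIRC3 held 2. Such a match is a description of the sequence, and binding was not measured.

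RELA, which encodes p65, the subunit with a strong activation domain in the most common dimer, held nearly the same RNA level throughout. Its RNA was at 44.44 FPKM in run 1 proliferation, 43.56 in quiescence and 43.13 in pre-senescence, and at 35.90 in run 2 proliferation, 43.01 in senescence and 42.33 in transformed cells. Its Ribo-Seq level was at 54.15, 53.94 and 39.22 FPKM in the same order in run 1, and at 34.01, 28.24 and 26.99 FPKM in run 2. RELA was within 2-fold of its reference in every comparison and layer, and the Ribo-Seq levels of the 2 proliferating columns already differed by 0.67 on the log2 scale.

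NFKB1, which encodes p105 and its processed product p50, the usual partner of p65, was highest in the library labelled transformed and within 2-fold of proliferation in every condition. NFKB1 RNA was at 12.51, 12.98 and 12.99 FPKM in proliferation, quiescence and pre-senescence of run 1, and at 14.84, 11.64 and 24.00 FPKM in proliferation, senescence and transformed cells of run 2. Ribo-Seq gave 13.49, 16.68 and 21.28 FPKM in run 1 and 16.36, 14.79 and 26.91 FPKM in run 2. The transformed column was the highest in both assays, at 1.62-fold of proliferation in RNA and 1.65-fold in Ribo-Seq, under the 2-fold limit, and the pre-senescent Ribo-Seq level was at 1.58-fold of its own proliferating column. In bulk libraries such as these, fewer cells that express a gene and less RNA per cell cannot be told apart.

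NFKB2, which encodes p100 and its product p52, the arm of the non-canonical pathway, was higher in senescence and in the library labelled transformed. Its RNA was at 10.86, 18.90 and 12.52 FPKM in run 1 (proliferation, quiescence, pre-senescence) and at 12.81, 27.52 and 36.56 FPKM in run 2 (proliferation, senescence, transformed). The Ribo-Seq levels were 20.72, 35.16 and 20.25 FPKM in run 1 and 14.38, 31.68 and 34.67 FPKM in run 2. Against proliferation of the same run, NFKB2 was 2.15-fold higher in senescence and 2.85-fold higher in transformed cells in RNA, and 2.20-fold and 2.41-fold higher in Ribo-Seq. In quiescence it stood at 1.74-fold in RNA and 1.70-fold in Ribo-Seq, short of the limit. Against the proliferating column of the other run, the log2 Ribo-Seq ratios dropped to 0.61 in senescence and 0.74 in transformed cells, under the 2-fold limit. The RNA ratio of NFKB2 to NFKB1 was 0.87 and 0.86 in the proliferating columns, 1.46 in quiescence, 0.96 in pre-senescence, 2.36 in senescence and 1.52 in transformed cells. In Ribo-Seq the proliferating columns differed in this ratio (1.54 and 0.88), and transformed cells, at 1.29, lay between them.

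RELB, the partner of p52 and itself a known NF-kB target, was the lowest subunit in every column, and above proliferation in all 4 other conditions in both assays. RELB RNA was at 2.59, 7.52 and 6.02 FPKM in run 1 and at 4.67, 9.27 and 20.97 FPKM in run 2. Ribo-Seq read 1.68, 3.93 and 7.98 FPKM in run 1 and 2.26, 3.05 and 7.85 FPKM in run 2. In RNA this was 2.90-fold higher in quiescence, 2.32-fold higher in pre-senescence and 4.49-fold higher in transformed cells, while senescence, at a log2 ratio of 0.99, lay just inside the limit. The 2 proliferating columns differed by 1.80-fold in RELB RNA. With the run 2 proliferating column as the reference, the log2 RNA ratios became 0.69 in quiescence and 0.37 in pre-senescence, and neither was then past 2-fold. On the log2(FPKM + 1) scale the Ribo-Seq ratio in quiescence was 0.88 and the RNA ratio in pre-senescence 0.97, also short of the limit. The ratio of RELB to RELA RNA was 0.058 and 0.13 in the proliferating columns of run 1 and run 2, and 0.495 in transformed cells.

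NFKBIA and NFKBIZ, both listed as inhibitor genes, parted in senescence, and in Ribo-Seq already in pre-senescence. NFKBIA encodes I kappa B alpha, the main cytoplasmic inhibitor and the classical feedback gene. Its RNA was at 19.29, 15.50 and 18.44 FPKM in run 1 and at 15.17, 18.02 and 58.17 FPKM in run 2, and its Ribo-Seq level at 27.73, 28.60 and 28.77 FPKM in run 1 and 32.04, 24.24 and 86.35 FPKM in run 2. The transformed column lay above the other 5 in each assay, by 3.83-fold over proliferation in RNA and 2.70-fold in Ribo-Seq. In senescence the log2 ratios of NFKBIA were 0.25 in RNA and -0.40 in Ribo-Seq. The RNA ratio of NFKBIA to RELA was between 0.36 and 0.43 in 5 columns and 1.37 in the transformed one.

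NFKBIZ encodes I kappa B zeta, a nuclear, atypical family member that works with p50 to switch on secondary response genes. NFKBIZ RNA was at 5.89, 3.22 and 6.77 FPKM in run 1 and at 6.28, 28.07 and 25.55 FPKM in run 2. Its Ribo-Seq level was at 7.17, 5.64 and 33.52 FPKM in run 1 and at 6.34, 40.39 and 28.35 FPKM in run 2. The 2 proliferating columns were close (0.09 apart on the log2 scale in RNA and 0.18 in Ribo-Seq). NFKBIZ was 4.47-fold higher in senescence and 4.07-fold higher in transformed cells in RNA, and 6.37-fold and 4.47-fold higher in Ribo-Seq. In pre-senescence the assays differed: the RNA was at 1.15-fold and the Ribo-Seq level at 4.68-fold of proliferation. In quiescence the RNA was at 0.55-fold of proliferation, within the limit.

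TNFAIP3 encodes A20, a ubiquitin-editing enzyme that shuts off signalling upstream of I kappa B kinase. It was among the lowest members, with RNA at 2.51, 2.26 and 4.76 FPKM in run 1 and 6.10, 6.88 and 4.51 FPKM in run 2, and Ribo-Seq at 1.48, 1.70 and 3.46 FPKM in run 1 and 4.29, 3.66 and 1.45 FPKM in run 2. The 2 proliferating columns differed by 2.43-fold in RNA and 2.90-fold in Ribo-Seq, more than any condition of either run differed from its own proliferating column in RNA. By the same-run reference TNFAIP3 Ribo-Seq was 2.34-fold higher in pre-senescence and, at a log2 ratio of -1.56, lower in transformed cells. Against the other run's proliferating column these log2 ratios were -0.31 and -0.03, so both calls depend on which proliferating column is the reference. On the log2(FPKM + 1) scale the pre-senescent Ribo-Seq ratio was 0.85.

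SOD2, the mitochondrial manganese superoxide dismutase and a strong NF-kB target, had the largest RNA ratio of any member. Its RNA was at 21.89, 24.56 and 23.04 FPKM in run 1 and at 19.99, 184.4 and 109.4 FPKM in run 2. Ribo-Seq stood at 47.36, 65.40 and 47.79 FPKM in run 1 and 67.44, 398.8 and 259.9 FPKM in run 2. Senescence and transformed cells thus stood apart from the other 4 columns, at 9.22-fold and 5.47-fold of proliferation in RNA and 5.91-fold and 3.85-fold in Ribo-Seq. In senescence 0.330% of all transcripts had an RNA ratio as high as that of SOD2.

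In quiescence 1 of 8 members (RELB) was past 2-fold higher in RNA and 1 (RELB) in Ribo-Seq, beside 4.01% and 9.11% of all transcripts. None of the 8 passed 2-fold either way in translation efficiency (TE, the Ribo-Seq level divided by the RNA level), beside 7.89% of all transcripts. Against the other run's proliferating column, the 1 member past 2-fold in quiescence RNA was TNFAIP3, lower, in place of RELB. After 5 days of RAS, 1 of 8 (RELB) was higher in RNA, 3 (RELB, NFKBIZ and TNFAIP3) in Ribo-Seq and 2 (RELB and NFKBIZ) in TE, beside 1.77%, 7.13% and 5.70% of all transcripts. The median of all transcripts was itself at -0.10 in Ribo-Seq and -0.13 in TE in this comparison. No member crossed the limit when the ratios were centred on the median of the transcripts above the floor. On the log2(FPKM + 1) scale the TE ratio of RELB was 0.78.

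After 14 days, 3 of 8 members were higher in RNA and the same 3 in Ribo-Seq (NFKB2, NFKBIZ and SOD2), beside 7.08% and 11.0% of all transcripts. None passed 2-fold in TE, beside 9.43% either way. The median member ratio on the log2 scale was 0.62 in RNA, 0.14 in Ribo-Seq and -0.47 in TE, beside -0.00, -0.10 and -0.03 for all transcripts. Of the 8 members, 1 was below 0 in RNA, 4 in Ribo-Seq and 5 in TE. Cycling markers were low in the same column, their RNA summing to 8.67 FPKM over the 4 genes in the table against 192.7 in run 2 proliferation. The part of these in the NF-kB values was not tested. The cycling markers in Ribo-Seq followed the titles, as given above. If the further label were followed instead, the log2 Ribo-Seq ratios in senescence would be -1.14 for NFKB2, -2.67 for NFKBIZ and -2.56 for SOD2. The RNA ratios would stand.

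In the library labelled transformed, 5 of 8 members were higher in RNA and the same 5 in Ribo-Seq (NFKB2, RELB, NFKBIA, NFKBIZ and SOD2), beside 4.92% and 5.28% of all transcripts. TNFAIP3 was lower in Ribo-Seq and in TE, 1 of 8 each, beside 7.36% and 2.13% of all transcripts. The TE call for TNFAIP3 (-1.13) was lost on the log2(FPKM + 1) scale (-0.74), against the other run's proliferating column (-0.87) and with the disputed Ribo-Seq columns exchanged (-0.90). The median log2 ratio of the members was 1.73 in RNA and 1.35 in Ribo-Seq, against 0.08 and 0.00 for all transcripts. The cycling markers summed to 164.9 FPKM of RNA, against 192.7 in proliferation. These changes to the transformed cells came together and their parts cannot be told apart. With the Ribo-Seq columns of senescence and run 2 proliferation exchanged, the log2 Ribo-Seq ratios here would be 0.13 for NFKB2, -0.51 for NFKBIZ and -0.62 for SOD2, and none of the 3 would be past 2-fold.

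Senescent and transformed cells were of the same run and were compared directly, with the transformed library again as labelled. NFKB1, RELB and NFKBIA RNA was lower in senescence (3 of 8, beside 15.1% of all transcripts), by 2.06-fold, 2.26-fold and 3.23-fold. In Ribo-Seq RELB and NFKBIA were lower (2 of 8, beside 17.3%) and TNFAIP3 was higher (1 of 8, beside 12.7%), with a log2 ratio of 1.34 that became 0.93 on the log2(FPKM + 1) scale. The call for NFKB1 rests on a log2 RNA ratio of -1.04, which was -0.97 after median-centring and -0.98 on the log2(FPKM + 1) scale. No member was past 2-fold in TE, beside 6.61% of transcripts either way. NFKBIZ and SOD2, high in both conditions, stood at 1.10-fold and 1.69-fold in senescence relative to transformed cells in RNA, both within the limit.

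The repeat of proliferation gives a scale for these differences, one that includes the difference between runs. Of the 8 members, TNFAIP3 alone was past 2-fold between run 2 and run 1 in RNA and in Ribo-Seq, beside 4.84% and 10.3% of all transcripts. None was in TE, beside 9.69% either way. For NFKB2 and SOD2 in senescence and transformed cells, for NFKBIZ in the same conditions and for NFKBIA in transformed cells, the RNA ratio was larger than the gap between the proliferating columns, which was at most 0.35 on the log2 scale for these genes.

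Translation efficiency differed widely between members, and for NFKBIZ and RELB also between conditions. SOD2 had the highest TE of the members in every column but pre-senescence, at log2 values of 1.05 to 1.75, whereas the median transcript was at 0.22 to 0.40. TNFAIP3 (-1.64 to -0.41) was below the median transcript throughout. RELB was below it in 5 columns (-1.60 to -0.62) and above it in pre-senescence (0.41). NFKBIZ stood at 0.28 in run 1 proliferation, 0.81 in quiescence and 2.31 in pre-senescence, and at 0.01, 0.52 and 0.15 in run 2 proliferation, senescence and transformed cells. Its pre-senescent value was the highest of any member in any column, 4.07-fold above proliferation, and 0.639% of all transcripts had a TE ratio as high in that comparison. The pre-senescent Ribo-Seq column is 1 sample, and the RNA values cover the whole transcript where Ribo-Seq values cover the coding sequence. RELA TE was at -0.08 in run 2 proliferation and at -0.61 and -0.65 in senescence and transformed cells, short of the limit. NFKBIA TE was at 1.08, 0.43 and 0.57 in the same columns, but at 0.52 in run 1 proliferation, so the proliferating columns alone differed by 0.56.

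Ordered by RNA level within a column, RELA was the highest member in proliferation, quiescence and pre-senescence, and SOD2 in senescence and transformed cells, where RELA stood in place 2 and place 3. At the low end, RELB and TNFAIP3 in run 1 proliferation (2.59 and 2.51 FPKM) differed by less than the gap between the proliferating columns of either gene. The same held for NFKB1 and NFKB2 in both proliferating columns and in pre-senescence, whereas in senescence and transformed cells other members stood between them. In senescence NFKBIZ and NFKB2 (28.07 and 27.52 FPKM) could not be ordered by this measure.

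Of 73 further genes of the pathway, listed by their textbook role, 62 had a row. These lists too were chosen with earlier results of these data known, so their counts beside all transcripts are a description. The 18 receptors, adaptors and ubiquitin ligases with a row (of 21) had median log2 RNA ratios between -0.11 and 0.20 in the 4 conditions. In RNA, 0 were higher and 1 lower in quiescence (BIRC2, a ligase of the TNF receptor complex, 47.20 to 21.04 FPKM), beside 4.01% and 2.37% of all transcripts, and none passed either way in pre-senescence, beside 1.77% and 2.00%. In senescence 1 was higher and 4 lower, beside 7.08% and 13.0% of all transcripts, and in transformed cells 2 were higher and 3 lower, beside 4.92% and 5.33%. IRAK2, a kinase-like adaptor of the interleukin 1 receptor, was higher in both, from 1.94 FPKM in run 2 proliferation to 9.20 in senescence and 16.92 in transformed cells. IL1R1, the receptor itself, was lower in senescence (18.46 to 5.57 FPKM).

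The 10 kinases, all with a row, stayed within 2-fold in RNA in quiescence and pre-senescence. MAP3K14, the kinase that starts p100 processing, was the 1 kinase of 10 lower in senescence (4.42 to 1.02 FPKM), beside 13.0% of all transcripts, and IKBKE the 1 higher in transformed cells (4.56 to 10.03 FPKM), beside 4.92%. Of the 6 other Rel and I kappa B proteins and partners with a row (of 7), COMMD1, which promotes the turnover of RELA, was at 18.23 FPKM in run 2 proliferation and 45.05 in senescence. BTRC, the substrate receptor of the ligase that degrades I kappa B, was at 6.60 and 14.10 FPKM. These 2 of the 6 were past 2-fold higher in RNA in senescence, beside 7.08% of all transcripts, and none of the 6 was past 2-fold in the other 3 conditions. Of the 9 other brakes with a row (of 10), ZC3H12A, an RNase that cuts cytokine mRNAs, was higher in senescence (2.96 to 6.96 FPKM) and in transformed cells (21.56 FPKM). TNIP1, a binding partner of A20, was higher in transformed cells (36.02 to 77.70 FPKM). This made 1 of the 9 higher in senescence and 2 in transformed cells, beside 7.08% and 4.92% of all transcripts.

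The 19 textbook targets with a row (of 25) differed most. In RNA, 3 were higher and 3 lower in quiescence, 6 higher and 2 lower in pre-senescence, 10 higher and 1 lower in senescence, and 12 higher and 1 lower in transformed cells. Of all transcripts, 4.01% were higher and 2.37% lower in quiescence, 1.77% and 2.00% in pre-senescence, 7.08% and 13.0% in senescence and 4.92% and 5.33% in transformed cells. The median log2 RNA ratio of the list was 0.00, 0.20, 1.82 and 1.53 in that order, beside 0.00, 0.02, -0.00 and 0.08 for all transcripts. The senescence and transformed medians are the ratios of CXCL5 (1 to 3.53 FPKM) and LIF (1 to 2.89 FPKM), each from a reference at the floor. CXCL5, LIF and CSF2 rose from the floor in both conditions, as did BCL2A1 in quiescence and CXCL3 and BCL2A1 in pre-senescence. In quiescence IL6, CXCL3, CXCL5 and CSF2 were at the floor in both columns, which sets their ratios to 0.00. IL8, the neutrophil chemokine CXCL8, was at 4.90 FPKM in run 2 proliferation, 126.7 in senescence and 231.5 in transformed cells, and at 7.14 and 27.97 FPKM in run 1 proliferation and pre-senescence. IL1B, which itself activates the pathway, was at 3.53, 92.79 and 240.2 FPKM in the 3 columns of run 2. CXCL1, another neutrophil chemokine, was at 6.65, 32.27 and 374.1 FPKM. ICAM1, a leukocyte adhesion molecule, was highest in senescence, at 217.6 FPKM against 18.87 in proliferation and 62.79 in transformed cells. CCL2, a monocyte chemokine, went the other way, from 80.99 FPKM to 15.15 in senescence and 27.71 in transformed cells, and from 55.54 to 26.97 in quiescence and 7.51 in pre-senescence. Between senescence and transformed cells 3 targets were higher and 4 lower in senescence, beside 8.08% and 15.1% of all transcripts. Between the proliferating columns of the 2 runs 3 of the 19 were higher in run 2, beside 4.84% of all transcripts, and 2 were lower, beside 2.99%, among them MMP3, a matrix metalloprotease, at 399.0 FPKM in run 1 and 43.36 in run 2.

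The genes whose profile over the 12 columns, with each assay centred on its own mean, was most like that of a member were found among 8414 transcripts. By Pearson's r they were PIK3CD for NFKBIA (0.97), AMPD3 and HERC3 for SOD2 (both 0.97), GOLM1 for NFKB1 (0.96), CTBP1 for RELA (0.94), PMPCA for NFKBIZ (0.94), ARHGAP24 for RELB (0.92) and BBS2 for NFKB2 (0.91). These are the top values of a search and describe 12 columns that share runs and cultures, and no other member was among the 2 nearest of any member.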

How the data were processed

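The deposited table gives FPKM for 9699 transcripts, 1 per gene, in 6 RNA-Seq and 6 Ribo-Seq columns. The authors aligned 50-nt reads with Bowtie to Ensembl release 65 transcripts (longest coding sequence per gene), kept unique alignments, counted RNA-Seq reads over the whole transcript and Ribo-Seq reads over the coding sequence, required 40 reads in both assays in at least 1 condition, and set FPKM values under 1 to 1. The labels name hg19. The table holds no read counts per gene, so the reads behind a value are not given and no interval was computed. The authors list total reads per library, which were not used here. Samples were grouped by their titles. Each condition was compared with the proliferating column of its own run as a log2 ratio of FPKM with no pseudocount. TE was the log2 Ribo-Seq FPKM minus the log2 RNA FPKM. With 1 column per condition and run no test was made, and p-values are absent for that reason. A difference of 2-fold was called, and the calculation was tested on simulated data. Alternatives were log2(FPKM + 1), filters on low values, a 1.5-fold limit, other proliferating references, median-centring and an exchange of the disputed Ribo-Seq columns. Median-centring used the median of the transcripts above the floor in the columns compared. All 10 members were named, other pathway genes by a fixed list when past 2-fold in RNA (at most 6 per list and comparison, of which some are given), and the nearest genes by r. The members and lists were chosen with earlier results of these data known. Protein sequences were not used here. Some items are not reported here. Promoter sequences and start sites are from RefSeq (GRCh38.p14). Scripts used Python 3.11.15 with numpy 2.4.6, pandas 2.3.3 and matplotlib 3.10.9.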

Additional observations from a re-analysis of the deposited data

Results flagged for a closer look

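NFKBIA, the feedback inhibitor gene, stood out because its Ribo-Seq ratios to proliferation had opposite signs in senescent and transformed cells. Its log2 ratio to proliferation was -0.40 in senescence and 1.43 in the library labelled transformed, a difference of -1.83 on the log2 scale between senescent and transformed cells. Each side is 1 library, and both ratios share the same proliferating library, so the difference was not tested. The senescent ratio was within 2-fold, the senescent RNA ratio was 0.25, and the sign of the senescent Ribo-Seq ratio turns when the disputed Ribo-Seq columns are exchanged.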

How the results depend on the processing

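Of 122 recomputed counts of members past 2-fold, 93 came within 1.5 times the reported count and 29 did not. An equal count can hold another gene: against the other run's proliferating column, quiescence RNA had 1 member lower (TNFAIP3) in place of 1 higher (RELB). Of 811 recomputed log2 ratios of single members, 745 moved by less than a set spread, 60 moved by more and 6 reversed. The spread was the SD of the differences between the proliferating columns over all transcripts, divided by the square root of 2. Reversed means that a ratio past 2-fold changed sign, and sign changes of smaller ratios are not counted there. The 745 include 144 from the floor filter and 123 from the 5 FPKM filter, which drop genes and cannot change a ratio. Median-centring moved no count beyond 1.5 times the reported one. The filter on transcripts above the floor could not move a count, because no member was at the floor. With the log2(FPKM + 1) scale the counts became 0 for quiescence Ribo-Seq, 0 for pre-senescence RNA, 1 for pre-senescence TE and 0 for transformed TE. With transcripts of 5 FPKM or more only, they were 0 for quiescence Ribo-Seq, 0 for transformed TE and 0 for the proliferating columns in Ribo-Seq, since fewer members were left. With the other run's proliferating column they were 2 for quiescence Ribo-Seq, 0 for pre-senescence RNA and 5 for senescence RNA, and with the mean of both proliferating columns 2 and 0 for the first of these. A 1.5-fold limit gave 3 and 2 in quiescence RNA and Ribo-Seq, 2 in pre-senescence RNA, 2 in senescence TE, 5, 5 and 1 in senescence against transformed (RNA, Ribo-Seq, TE) and 2, 2 and 2 between the proliferating columns. With the senescent and run 2 proliferating Ribo-Seq columns exchanged, the counts were 4 for senescence TE, 3 and 3 for transformed Ribo-Seq and TE, 6 and 2 for senescence against transformed Ribo-Seq and TE, and 3 and 2 between the proliferating columns in Ribo-Seq and TE. The same exchange turned the log2 Ribo-Seq ratios in senescence to -1.14 for NFKB2, -2.67 for NFKBIZ and -2.56 for SOD2, and those in transformed cells to -0.51 for NFKBIZ and -0.62 for SOD2, as its construction implies. The TNFAIP3 Ribo-Seq ratio in pre-senescence was -0.31 against the other run's proliferating column. For the other changes the cause was not tested. No paired analysis was possible because the replicates of a condition are combined in 1 column or are single samples, and leaving out a replicate could not be done for the same reason. The missing read counts per gene limit the low members, TNFAIP3 and RELB, most in Ribo-Seq.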
